A study of Homo sapiens with 36 samples.

Results

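The RNAs described here were those of 9 genes whose proteins cut, tail and bind the 3′ ends of mRNA: NUDT21, CPSF6 and CPSF7 of cleavage factor I, CLP1 of cleavage factor II, the poly(A) polymerase PAPOLA, the poly(A)-binding proteins PABPN1 and PABPC1, the cleavage cofactor RBBP6, and SNRNP70 of the U1 snRNP. They were chosen by name. The data were 18 lists of PAR-CLIP clusters, short stretches of RNA that were crosslinked to protein, and a cluster was given to a gene when its midpoint lay within the gene body on the same strand (GENCODE 44, GRCh38). Of 278185 clusters in all lists, 602 lay in these genes, and 8 of the 9 genes held at least 1. Clusters of all lists that overlapped on a strand were merged into 82455 sites, of which 116 lay in the 9 genes. Sites were numbered along each gene in the direction of transcription.

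The cells were HEK293 Flp-in T-Rex, a human embryonic kidney line built to take up a doxycycline-inducible transgene. There were 6 groups of 3 lists: FLAG immunoprecipitates (IPs) and inputs from cells expressing FLAG-SCAF4, from cells expressing FLAG-SCAF8, and from the parental line, which carried no tagged protein. All cells received 100 µM 4-thiouridine (4SU) overnight and 500 µM for a further 2 h before irradiation at 365 nm and 2000 J/m2, and the labels give 100 ng/mL doxycycline for cells with a tagged protein and list none for parental cells. The study's methods differ, giving another dose to parental and tagged lines alike, so whether the parental line received doxycycline is not settled. Each list combined the soluble and the chromatin sample of a line and replicate, 36 samples in all. The tagged proteins were supplied on top of the endogenous ones, which all groups still had. The SCAF4 and SCAF8 IP lists together are called SCAF IP below, and the inputs of the same lines their own inputs.

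SCAF4 and SCAF8 are paralogous RNA-binding proteins with a domain that holds the C-terminal repeats of RNA polymerase II. The genes described here act on the choice of where an mRNA ends. Cleavage factor I binds UGUA through NUDT21, with CPSF6 or CPSF7 as its larger subunit, and is known for favouring distal polyadenylation sites. PABPN1 coats the new tail in the nucleus and holds back proximal sites, PABPC1 binds the tail in the cytoplasm, RBBP6 activates the cleavage machinery, and the U1 snRNP, besides recognising 5′ splice sites, protects long transcripts from premature cleavage. The question asked of the lists was where along these transcripts the tagged proteins were crosslinked, and whether those positions differed from the positions in control IPs and inputs.

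The lists differed in length, from 1621 clusters in control IP replicate 3 to 54404 in SCAF4 IP replicate 2. SCAF IP lists held 18287 to 54404 clusters, control IP lists 1621 to 9638 and inputs 4567 to 12493. They hold clusters and no reads, so the depth is unknown, and a gene with no cluster may have had reads below the caller's limits. No 2 lists shared more than 0.740% of their clusters exactly. Cluster numbers are given per list and, where lists were compared, per 10000 clusters of the list. In a bulk measurement such a number moves with the amount of the RNA as well as with crosslinking to it, and these could not be told apart. The study calls the replicates biological, and neither it nor the labels say whether they were separate cultures, so p-values measure only the spread between these lists.

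The sites first shown are 6 that crossed an exon-intron boundary and had clusters in SCAF IP lists and in no input or control IP list. They are printed 5′ to 3′ on the transcribed strand of GRCh38, with bases of the MANE Select exons in capitals and intronic bases in lower case. Each splice junction within a site shows as a change of case. A site merges clusters of several lists, and not every cluster crossed the junction. The parts that most lists shared lay wholly in exons at PAPOLA sites 1 (chr14:96520134-96520204) and 2 (chr14:96525326-96525384) and CPSF7 site 4 (chr11:61421539-61421582). CPSF6 site 9 is chr12:69251069-69251330 on the plus strand and runs from the last bases of intron 1 into exon 2. CPSF7 site 4 is chr11:61421389-61421659 on the minus strand and, as merged, covers the whole of exon 3, which no single cluster did. PAPOLA sites 1 and 2 are chr14:96520064-96520239 and chr14:96525323-96525399 on the plus strand, at the 3′ ends of exons 2 and 4. The coding and intronic bases of RBBP6 site 2 are chr16:24540627-24540861 on the plus strand, starting at the first coding base. They do not hold the stretch covered in all 6 SCAF IP lists, which lies upstream in the 5′ UTR (chr16:24540200-24540213). RBBP6 site 7 is chr16:24559572-24559714 on the plus strand, at the end of exon 8. It was chosen after its values were seen, because it lies before the annotated end of a short transcript.
CPSF6 site 9: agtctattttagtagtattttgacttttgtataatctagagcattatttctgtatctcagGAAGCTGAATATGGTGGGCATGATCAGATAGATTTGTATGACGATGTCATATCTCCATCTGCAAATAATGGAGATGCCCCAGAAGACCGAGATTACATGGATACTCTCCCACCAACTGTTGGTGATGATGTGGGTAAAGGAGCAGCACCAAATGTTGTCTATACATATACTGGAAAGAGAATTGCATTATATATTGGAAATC
CPSF7 site 4: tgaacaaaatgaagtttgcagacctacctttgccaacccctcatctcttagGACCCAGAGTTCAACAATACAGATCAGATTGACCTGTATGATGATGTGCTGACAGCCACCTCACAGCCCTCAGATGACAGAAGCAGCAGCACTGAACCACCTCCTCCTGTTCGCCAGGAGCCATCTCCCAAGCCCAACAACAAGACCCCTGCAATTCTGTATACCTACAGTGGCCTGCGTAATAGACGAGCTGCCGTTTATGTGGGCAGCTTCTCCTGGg
PAPOLA site 1: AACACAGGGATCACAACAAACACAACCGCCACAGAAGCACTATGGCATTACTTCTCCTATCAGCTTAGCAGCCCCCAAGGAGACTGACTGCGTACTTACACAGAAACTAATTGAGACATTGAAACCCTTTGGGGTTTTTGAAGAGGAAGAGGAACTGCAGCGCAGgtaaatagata
PAPOLA site 2: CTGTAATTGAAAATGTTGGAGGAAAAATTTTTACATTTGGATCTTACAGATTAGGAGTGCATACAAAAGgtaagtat
RBBP6 site 2, coding and intronic bases: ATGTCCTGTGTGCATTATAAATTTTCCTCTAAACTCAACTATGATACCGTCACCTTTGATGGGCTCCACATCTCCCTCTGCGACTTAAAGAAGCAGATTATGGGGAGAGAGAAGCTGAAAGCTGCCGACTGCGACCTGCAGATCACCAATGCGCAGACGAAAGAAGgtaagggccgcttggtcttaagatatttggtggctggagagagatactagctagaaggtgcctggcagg
RBBP6 site 7: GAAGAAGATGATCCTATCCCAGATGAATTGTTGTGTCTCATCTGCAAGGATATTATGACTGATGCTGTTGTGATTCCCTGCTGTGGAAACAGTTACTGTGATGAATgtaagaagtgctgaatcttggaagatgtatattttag

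CPSF6 and CPSF7 encode paralogous subunits, and the exons under their sites are alike. Bases 22 to 47 of CPSF6 exon 2 (chr12:69251150-69251175) and bases 22 to 47 of CPSF7 exon 3 (chr11:61421562-61421587) were identical at 22 of 26 positions, or 84.6%, in the best ungapped alignment of the exonic bases of the sites. This stretch lay within the part of CPSF6 site 9 that clusters of all 6 SCAF IP lists covered (chr12:69251126-69251179), and it overlapped the part of CPSF7 site 4 that clusters of all 3 SCAF4 IP lists covered (chr11:61421539-61421582). The comparison was made after both sites had been seen. The aligned bases were as follows.
CPSF6 exon 2: GATCAGATAGATTTGTATGACGATGT
CPSF7 exon 3: GATCAGATTGACCTGTATGATGATGT

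Within introns, 2 sites were found in all SCAF IP lists and no input of any line, and another in every list of every group. They are shown side by side, by the part that most lists shared, 5′ to 3′ and with CGG and CGA in capitals, one of the short letter groups listed in the study. CPSF6 site 2, in intron 1 (core chr12:69240452-69240554, plus strand), and SNRNP70 site 12, in intron 8 (core chr19:49105351-49105439, plus strand), were the pair seen in every SCAF IP list, and both were also in control IP replicate 1. SNRNP70 site 11, at the end of intron 7 (core chr19:49104487-49104597, plus strand), was the one seen in IPs and inputs alike. CGG or CGA was present in all 3 of these cores, which were picked for their lists. Other intronic cores differed. Those of CPSF6 site 3, PABPN1 site 3 and SNRNP70 sites 14 and 15 held it. Those of CPSF6 site 4, CPSF7 site 5, PABPN1 sites 1, 4 and 5, RBBP6 site 4 and SNRNP70 sites 8 and 13 did not. Around the middle of all 116 sites its share was 52.6%, beside 62.0% in all protein-coding genes.
CPSF6 site 2, core: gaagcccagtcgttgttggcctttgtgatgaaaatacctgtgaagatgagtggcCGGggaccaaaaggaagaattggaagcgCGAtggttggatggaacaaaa
SNRNP70 site 12, core: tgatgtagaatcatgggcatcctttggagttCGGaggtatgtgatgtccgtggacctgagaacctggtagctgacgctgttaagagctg
SNRNP70 site 11, core: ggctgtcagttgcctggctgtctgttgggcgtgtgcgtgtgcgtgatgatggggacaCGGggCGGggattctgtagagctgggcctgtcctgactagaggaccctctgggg

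Every SCAF IP list held clusters in 8 of the 9 genes. The share of a list that these genes took up overlapped between SCAF4 IP lists and their own inputs, and was lower in SCAF8 IP lists than in theirs. The genes held 48, 91 and 64 clusters in SCAF4 IP replicates 1 to 3 and 61, 40 and 65 in SCAF8 IP. Control IP lists held 31, 4 and 3. Inputs held 36, 11 and 13 (SCAF4), 25, 29 and 26 (SCAF8) and 27, 16 and 12 (control). Per 10000 clusters of the list, this was 16.7 to 25.3 in SCAF4 IP, 15.7 to 24.2 in SCAF8 IP, 17.3 to 32.2 in control IP and 21.5 to 35 over the 9 inputs. SCAF4 inputs ran from 21.5 to 30.7 and overlapped their IP lists. SCAF8 inputs ran from 27.3 to 28.9, above all SCAF8 IP lists. The difference in this share was not tested. CLP1, the RNA kinase of cleavage factor II (chr11:57648188-57661865, plus strand), held no cluster in any of the 18 lists. A count of 0 allows at most 0.279 clusters per 10000 in the SCAF4 IP lists together, 0.353 in SCAF8 IP and 2.21 in control IP, and such limits cover counting error only.

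**Figure D1:**
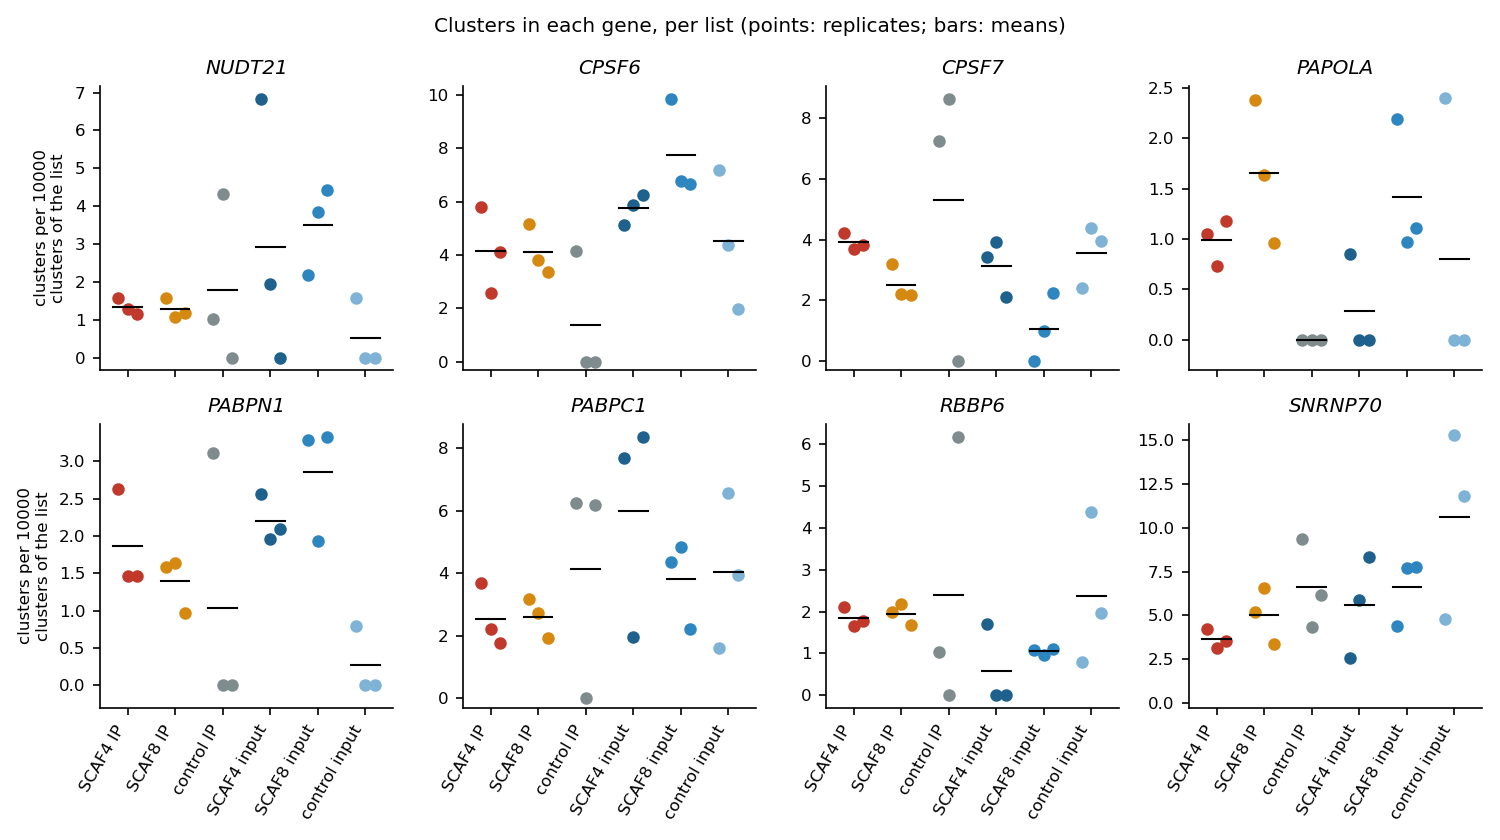
Clusters in each of the 8 genes with a cluster, per 10000 clusters of the list (y axis, with its own scale for each gene), in the 3 lists of each group (points, replicates 1 to 3 from left to right) and their mean (bar). CPSF6 and PAPOLA sit at 0 in 2 and in 3 of the control IP lists, and RBBP6 lies above the list of its own input in all 6 SCAF IP lists.

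Against their own inputs, none of the 8 genes with clusters passed the test in either direction. The test was limma on log2 clusters per list total, adjusted over all 7676 genes tested. In it, 2131 genes (27.8%) were higher in SCAF IP and 152 (1.98%) were lower, and no member reached an unadjusted p below 0.05, as 3398 genes did. An exact permutation test in place of limma also called no member, with 3 members at an unadjusted p below 0.05. The median difference was 0.60 on the log2 scale over all genes and −0.49 over the 8 members. RBBP6 had the largest member difference, 1.29 ± 0.66 (SE; limma adjusted p = 0.138), followed by CPSF7 with 0.89 ± 0.69 and PAPOLA with 0.79 ± 0.55. NUDT21 (−0.63), CPSF6 (−0.68), PABPN1 (−0.56), PABPC1 (−0.71) and SNRNP70 (−0.42) had values below 0. Without scaling to the list total, a setting added after seeing the data, the median of all genes rose to 1.38 and these 5 values turned positive. In that setting 4 of 8 members were called higher (CPSF7, PAPOLA, RBBP6 and SNRNP70), beside 71.8% of all genes. Without replicate 1, PAPOLA was called higher and SNRNP70 lower, beside 39.9% and 4.24% of all genes.

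Against control IP, CPSF6 and PAPOLA were called higher in SCAF IP by limma. The fitted difference of CPSF6 was 2.48 ± 0.68 on the log2 scale (SE; limma adjusted p = 0.0148), and the adjusted p of PAPOLA was 0.0199. Over all genes, 2072 (27.0%) were higher and 188 (2.45%) lower in this comparison, so 2 of 8 members was near the background. PABPN1 had a difference of 1.41 (adjusted p = 0.121), RBBP6 of 0.64, NUDT21 of 0.36, CPSF7 of 0.29, PABPC1 of 0.24 and SNRNP70 of −0.56. The control IP lists were short. CPSF6 had clusters in replicate 1 alone, at 4.15 per 10000, beside means of 4.16 and 4.12 in SCAF4 and SCAF8 IP. Control IP replicates 2 and 3, where it had none, held only 2314 and 1621 clusters. The part of list length in the CPSF6 difference was not tested. PAPOLA had no cluster in any control IP list. A count of 0 in the 13573 control IP clusters allows up to 2.21 clusters per 10000. That is above the 0.989 ± 0.228 and 1.66 ± 0.709 (SD, n = 3) that PAPOLA reached in SCAF4 and SCAF8 IP, so no fold change is given for PAPOLA. Its fitted value is no bound and moved from 2.28 to 1.56 on the log2 scale with a prior count of 1. Both calls were lost without replicate 2 (adjusted p = 0.159 for CPSF6 and 0.124 for PAPOLA in limma), without replicate 3 (0.192 and 0.160), for clusters of at least median score (0.0632 and 0.231), and in an exact permutation test in place of limma (0.185 and 0.0710). Without replicate 3 and in the permutation test, no gene of the genome was called in this comparison. Of all genes, 5.87% were called higher without replicate 2 and 1.13% at the median score.

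**Figure D2:**
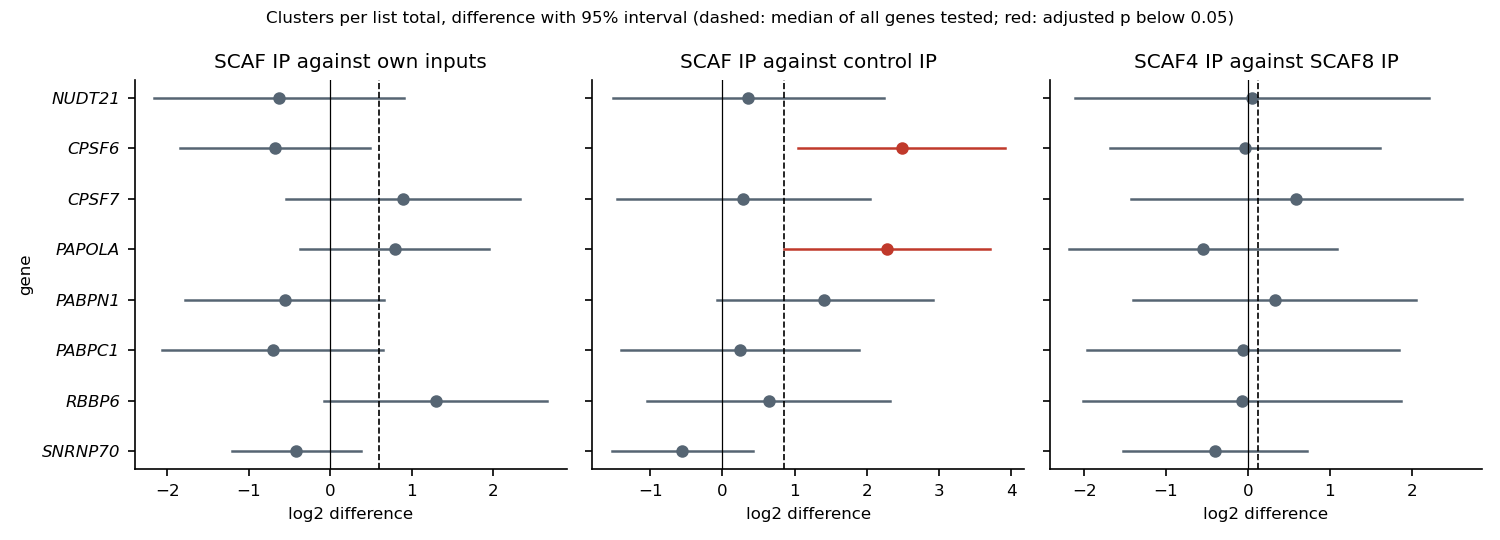
Fitted log2 difference in clusters per list total for each gene (points) with its 95% interval (lines), in 3 comparisons. The dashed line is the median of all 7676 genes tested, and red marks an adjusted p below 0.05. CPSF6 and PAPOLA against control IP are the only marked values, and every interval against own inputs and between SCAF4 and SCAF8 IP crosses 0.

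Single sites of CPSF6, RBBP6 and SNRNP70 were found in every SCAF IP list and in none of their own inputs. Of the 116 sites, 50 were found in at least 4 of the 12 SCAF IP and own input lists, the number set for the test, and were tested with Fisher's exact test, adjusted over 20794 sites of the whole genome. There were 4 sites called, all of them higher in SCAF IP, beside 990 (4.76%) over all sites and none lower. Each had clusters in 6 of 6 SCAF IP lists and in 0 of 6 own inputs (two-sided exact p = 0.00216, the smallest that 6 against 6 lists allow, adjusted p = 0.0455). They were CPSF6 sites 2 and 9, RBBP6 site 2 and SNRNP70 site 12. In control IP, CPSF6 site 2 and SNRNP70 site 12 were each found in replicate 1, and the other two in no list. A further 8 sites had 5 of 6 SCAF IP lists and no own input (exact p = 0.0152, adjusted p = 0.0793).

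Without replicate 1, 2 or 3 no site was called, in these genes or elsewhere. When each list was reduced to its 4793 highest-scoring clusters, the length of the shortest, no site was called over the genome, and 119 of 3799 sites had an unadjusted exact p below 0.05. CPSF6 sites 2 and 9 and RBBP6 site 2 then had clusters in none of the 12 lists, and SNRNP70 site 12 in 2 SCAF IP lists and no input. With the replicate block, which sets every IP list against its same-numbered input, the smallest exact p for 6 pairs is 0.0312 and no site was called, with 990 sites of the genome and 4 member sites below an unadjusted 0.05. The part of list length in these calls beyond these values was not tested.

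**Figure D3:**
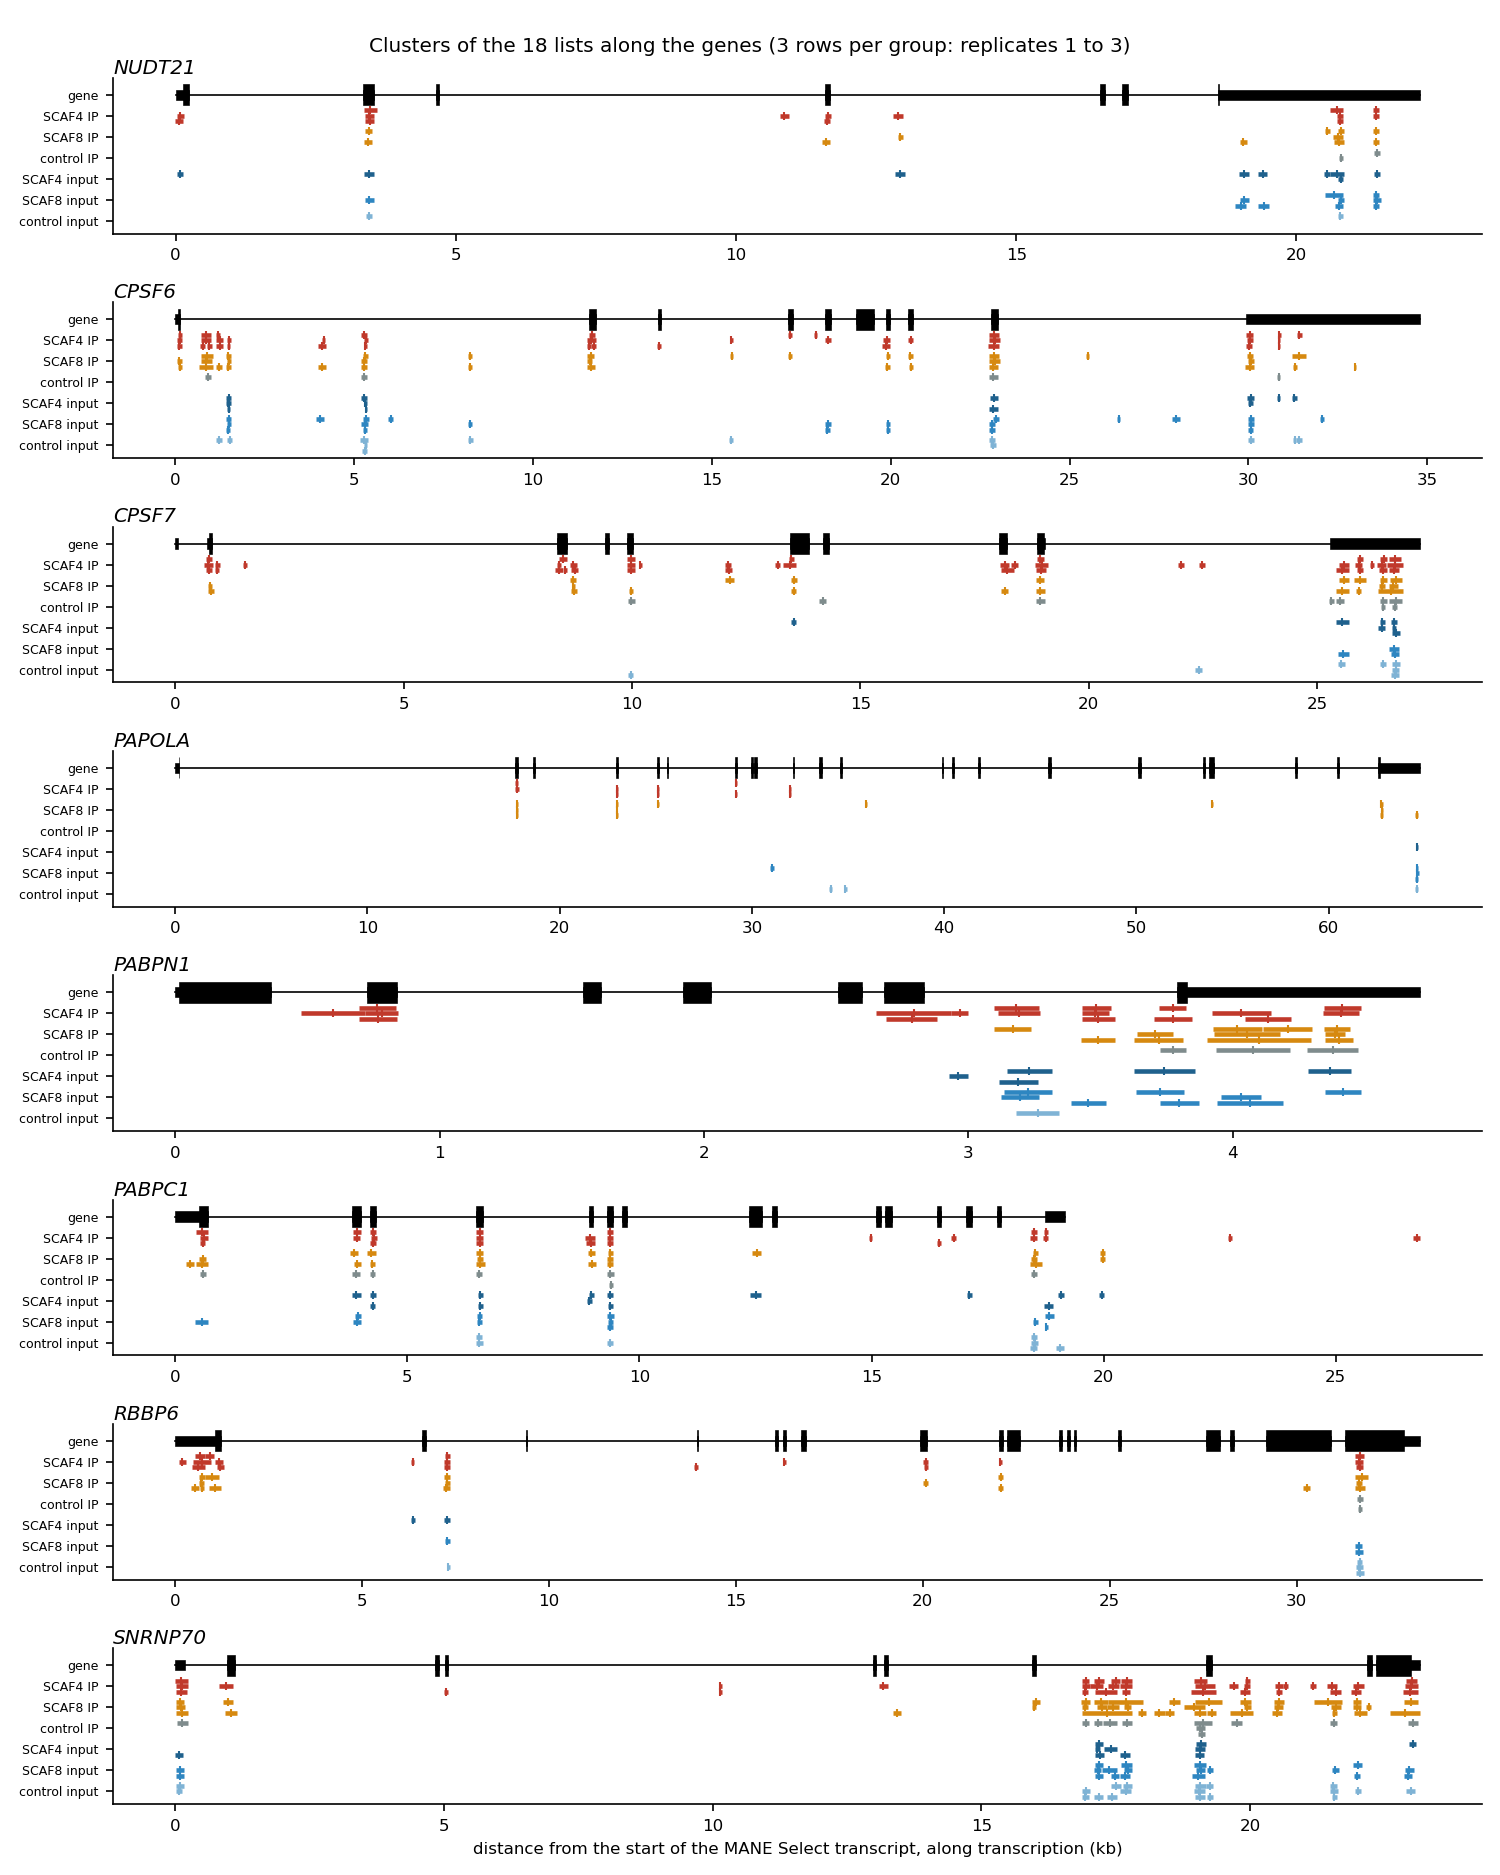
Clusters of the 18 lists along the 8 genes that held clusters, in kb from the start of the MANE Select transcript in the direction of transcription. Thick black boxes are coding exons, thinner boxes untranslated exons, and each coloured bar is a cluster with its midpoint marked, in 3 rows per group for replicates 1 to 3. The clusters at the start of RBBP6 appear in SCAF4 and SCAF8 IP rows only, and those over SNRNP70 intron 7 in rows of every group.

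NUDT21, which encodes the UGUA-binding subunit (chr16:56429133-56452199, minus strand), was marked in its 3′ UTR in IPs and inputs. It had 3, 7 and 4 clusters in SCAF4 IP, 4, 2 and 5 in SCAF8 IP and 1, 1 and 0 in control IP. Inputs had 8, 1 and 0 (SCAF4), 2, 4 and 4 (SCAF8) and 2, 0 and 0 (control). Per 10000 clusters, SCAF4 IP lists (1.18 to 1.58) lay within the spread of their inputs (0 to 6.83), and SCAF8 IP lists (1.09 to 1.59) lay below theirs (2.19 to 4.44). The difference against own inputs did not pass (limma adjusted p = 0.537), and other genes with lists apart like this were not counted. Of its 48 clusters, 30 (62.5%) lay in the 3′ UTR. These were 5 of 14 in SCAF4 IP, with as many in coding exons, 7 of 11 in SCAF8 IP, 6 of 9 in SCAF4 inputs and 9 of 10 in SCAF8 inputs. Site 8 of the 3′ UTR (chr16:56430487-56430834) was found in all 6 SCAF IP lists, 6 of 9 inputs and 1 control IP list. Site 9, nearer to the transcript end, was found in 4 SCAF IP lists, 4 inputs and 1 control IP list. Coding exon 2 held site 2 (chr16:56447746-56447969), found in 5 SCAF IP lists and 3 inputs. An unnamed overlapping gene model on the same strand, ENSG00000288725, covers 32 of these clusters, which could belong to either.

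CPSF6, the large subunit of cleavage factor I (chr12:69239569-69274358, plus strand), was marked along its whole length. It had 11, 14 and 14 clusters in SCAF4 IP, 13, 7 and 14 in SCAF8 IP, and 4, 0 and 0 in control IP. Inputs had 6, 3 and 3 (SCAF4), 9, 7 and 6 (SCAF8) and 9, 2 and 1 (control). Per 10000 clusters the means were 4.16 ± 1.61 and 4.12 ± 0.929 in SCAF4 and SCAF8 IP and 5.75 ± 0.578 and 7.75 ± 1.81 in their inputs (SD, n = 3). The SCAF8 IP lists ran from 3.37 to 5.16 and their inputs from 6.66 to 9.84, while the SCAF4 IP and input lists overlapped. The difference against own inputs did not pass (limma adjusted p = 0.374). How many other genes have lists apart in this way was not counted.

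Near the start of CPSF6, sites found in SCAF IP and in no input lay beside sites shared with inputs. Site 2 of intron 1 (chr12:69240242-69240624, 383 nt) was in 6 SCAF IP lists, 1 control IP list and no input. Site 3 (chr12:69240702-69240912) followed with 3 SCAF4 and 1 SCAF8 IP lists and 1 control input. Site 4 (chr12:69240976-69241155) was in 5 SCAF IP lists and in all 6 own inputs. Site 1, at the end of exon 1 (chr12:69239614-69239759), was in 5 SCAF IP lists and no input.

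Over the coding exons of CPSF6, site 9 in exon 2 was found in all 6 SCAF IP lists and no other. Site 15, over exon 7 (chr12:69259330-69259561), was in 4 SCAF IP lists and 2 SCAF8 inputs. Site 17, over exon 9 (chr12:69262298-69262634), was in 6 SCAF IP lists, 7 inputs and 1 control IP list. In the 3′ UTR, site 21 (chr12:69269480-69269737) was in 6 SCAF IP lists and 6 inputs and holds the annotated end of a shorter transcript 164 nt before its 3′ edge. Site 22 (chr12:69270373-69270469) was in all 3 SCAF4 IP lists and in no SCAF8 IP list, with 1 control IP list and 1 SCAF4 input.

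CPSF7, the alternative large subunit (chr11:61402641-61430031, minus strand), had 8, 20 and 13 clusters in SCAF4 IP and 8, 4 and 9 in SCAF8 IP. Control IP had 7, 2 and 0. Inputs had 4, 2 and 1 (SCAF4), 0, 1 and 2 (SCAF8) and 3, 2 and 2 (control). Per 10000 clusters, the 3 SCAF4 IP lists (3.68 to 4.21) lay above the 3 SCAF8 IP lists (2.17 to 3.18), but the difference of 0.59 ± 0.97 (SE; limma adjusted p = 0.998) was within its error. How often this order holds in other genes was not counted. In inputs, 14 of the 17 clusters lay in the 3′ UTR, as against 21 of 62 in SCAF IP, where coding exons and introns held the rest together with a single 5′ UTR cluster.

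Exon 3 of CPSF7 and the intron behind it held sites found in SCAF IP lists only. Site 4, over exon 3, was in 3 of 3 SCAF4 IP lists and in no other list. Site 5 (chr11:61421161-61421340), just behind it in intron 3, was in 2 SCAF4 and 3 SCAF8 IP lists and no other, and the annotated end of a short transcript lies within it, 64 nt before its 3′ edge. Site 1, over exon 2 with the start codon region (chr11:61429136-61429355), and site 18, in the 3′ UTR (chr11:61403915-61404158), were each in 3 SCAF4 and 2 SCAF8 IP lists and no other. Site 13, over exon 9 (chr11:61410866-61411148), was in 5 SCAF IP lists and 1 control IP list, and site 6, at the end of exon 5 (chr11:61419920-61420093), in 3 SCAF4 IP and 1 SCAF8 IP lists, 1 control IP list and 1 control input. Site 10, at the start of exon 6, was in 4 SCAF IP lists and 1 input. The 3′ UTR sites 17 and 20 were shared, site 20 (chr11:61403102-61403655) with 16 of 18 lists.

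PAPOLA, the poly(A) polymerase (chr14:96501433-96567116, plus strand), was marked in coding exons in SCAF IP lists only. Its introns and 3′ UTR were marked in SCAF IP lists and inputs. It had 2, 4 and 4 clusters in SCAF4 IP, 6, 3 and 4 in SCAF8 IP and none in control IP. Inputs had 1, 0 and 0 (SCAF4), 2, 1 and 1 (SCAF8) and 3, 0 and 0 (control). Of the SCAF IP clusters, 8 of 10 in SCAF4 IP and 8 of 13 in SCAF8 IP lay in coding exons, and none of the 8 input clusters did. In SCAF8 IP, 4 of 13 lay in the 3′ UTR. In the other protein-coding genes, coding exons held 40.8% to 53.7% of the clusters of SCAF IP lists and 25.5% to 38.6% of those of inputs. Sites 1 and 2, at the ends of exons 2 and 4, were each in 2 SCAF4 and 3 SCAF8 IP lists and no other. The last site of the 3′ UTR, site 12 (chr14:96566889-96567055), which ends 61 nt before the annotated end of the gene, was in 5 inputs and 1 SCAF8 IP list. Site 11 (chr14:96565034-96565216), at the start of the same UTR, was in all 3 SCAF8 IP lists and no other.

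PABPN1, the nuclear poly(A)-binding protein (chr14:23321457-23326163, plus strand), is known for keeping its own last intron in part of its transcripts. That intron and the 3′ UTR behind it held most of its clusters in every group. It had 5, 8 and 5 clusters in SCAF4 IP, 4, 3 and 4 in SCAF8 IP and 3, 0 and 0 in control IP. Inputs had 3, 1 and 1 (SCAF4), 3, 2 and 3 (SCAF8) and 1, 0 and 0 (control). Intron 6 held sites 3, 4 and 5. Site 3 (chr14:23324553-23324798) was in 3 SCAF IP lists and 5 inputs, site 4 (chr14:23324846-23325010) in 4 SCAF IP lists and 1 input, and site 5, at the junction with exon 7 (chr14:23325083-23325327), in 4 SCAF IP lists, 3 inputs and 1 control IP list. Site 6 of the 3′ UTR (chr14:23325360-23325939) was in 6 SCAF IP lists, 4 inputs and 1 control IP list.

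At the other end of PABPN1, site 1 (chr14:23321933-23322299), at the end of intron 1 and over exon 2, was in all 3 SCAF4 IP lists and no other. All 46 clusters of PABPN1 also lie within a readthrough gene, BCL2L2-PABPN1, and could come from either RNA. That gene held 94 clusters in all.

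PABPC1, the cytoplasmic poly(A)-binding protein (minus strand), was marked over its coding exons in IPs and inputs alike. It had 7, 12 and 6 clusters in SCAF4 IP, 8, 5 and 8 in SCAF8 IP and 6, 0 and 1 in control IP. Inputs had 9, 1 and 4 (SCAF4), 4, 5 and 2 (SCAF8) and 2, 3 and 2 (control). Coding exons held 60 of its 85 clusters (70.6%), and 43 (50.6%) spanned an exon-intron boundary. Sites 5 and 7, over exons 4 and 6, were in all 6 SCAF IP lists, in 6 inputs each, and in 1 and 2 control IP lists. Site 2, at the end of exon 1, was in 5 SCAF IP lists and 1 input, and sites 3, 4 and 6, over exons 2, 3 and 5, were each in 4 or 5 SCAF IP lists and 2 or 3 inputs. Sites 2, 3 and 4 were each also in 1 control IP list. Site 13, in intron 14, was in 5 SCAF IP lists, 1 control IP list and 4 inputs, 3 of them control inputs. No PABPC1 site was found in 2 or more SCAF IP lists and nowhere else. Among its relatives PABPC4 held 143 clusters, PABPC1L 47 and PABPC3 8. The authors let reads with many matches be placed at 1 of them, so clusters in stretches shared by these genes are uncertain.

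RBBP6, which joins the cleavage machinery (chr16:24537693-24572863, plus strand), had clusters at its 5′ end that came from SCAF IP lists alone. It had 4, 9 and 6 clusters in SCAF4 IP, 5, 4 and 7 in SCAF8 IP and 1, 0 and 1 in control IP. Inputs had 2, 0 and 0 (SCAF4), 1, 1 and 1 (SCAF8) and 1, 2 and 1 (control). Per 10000 clusters the means were 1.84 ± 0.235 and 1.95 ± 0.252 in SCAF4 and SCAF8 IP and 0.569 ± 0.986 and 1.06 ± 0.0793 in their inputs (SD, n = 3), and each IP lay above the input of its own number in 3 of 3 pairs of each line. The difference missed the threshold over all genes, which 27.8% of them passed as higher. How many other genes lay above their inputs in every pair was not counted.

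Site 2 of RBBP6 (chr16:24539993-24540861, 869 nt) covered 800 nt of exon 1, with the 5′ UTR and the first coding bases, and 69 nt of intron 1. It held 12 clusters, in all 6 SCAF IP lists and in no control IP or input list. With site 1 before it, all 10 clusters of RBBP6 with a midpoint in the 5′ UTR came from SCAF IP, 5 from each line. The clusters were spread along the exon. The stretch covered in all 6 lists was 14 nt long and lay in the 5′ UTR (chr16:24540200-24540213), not at the exon-intron boundary. Site 4, in intron 2 (chr16:24546731-24546928), was in 6 SCAF IP lists and 3 inputs, and site 10, in the last exon (chr16:24571119-24571490), in 6 SCAF IP lists, 5 inputs and 2 control IP lists. RBBP6 also has a short annotated transcript. Site 7, whose sequence is printed above, ends 91 nt before the end of that transcript and was in 2 SCAF4 and 1 SCAF8 IP lists and no other.

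SNRNP70, the U1-70K protein (chr19:49085419-49108605, plus strand), was marked mostly in introns. It had 8, 17 and 12 clusters in SCAF4 IP, 13, 12 and 14 in SCAF8 IP and 9, 1 and 1 in control IP. Inputs had 3, 3 and 4 (SCAF4), 4, 8 and 7 (SCAF8) and 6, 7 and 6 (control). Introns held 102 of its 135 clusters (75.6%). The gene is known for an alternative exon that exposes its transcript to decay. Site 8, in intron 7 (chr19:49102307-49103504, 1198 nt), was in 6 SCAF IP lists, all 9 inputs and 1 control IP list. Site 11, from the end of intron 7 over exon 8 (chr19:49104216-49104931), was in all 18 lists.

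Behind exon 8, the first sites of SNRNP70 intron 8 were found in no input and the later ones in inputs too. Site 12 (chr19:49105058-49105504) was in 6 SCAF IP lists and 1 control IP list, and site 13 (chr19:49105859-49106157) in 5 SCAF IP lists and no other. Site 14 (chr19:49106571-49107163) was in 5 SCAF IP lists, 4 inputs and 1 control IP list, and site 15, at the junction with exon 9, in 5 SCAF IP lists and 3 inputs. Site 1, over exon 1 (chr19:49085449-49085680), was in 6 SCAF IP lists, 5 inputs and 1 control IP list. Site 16, in the last exon, was in 5 SCAF IP lists, 4 inputs and 1 control IP list.

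**Figure D4:**
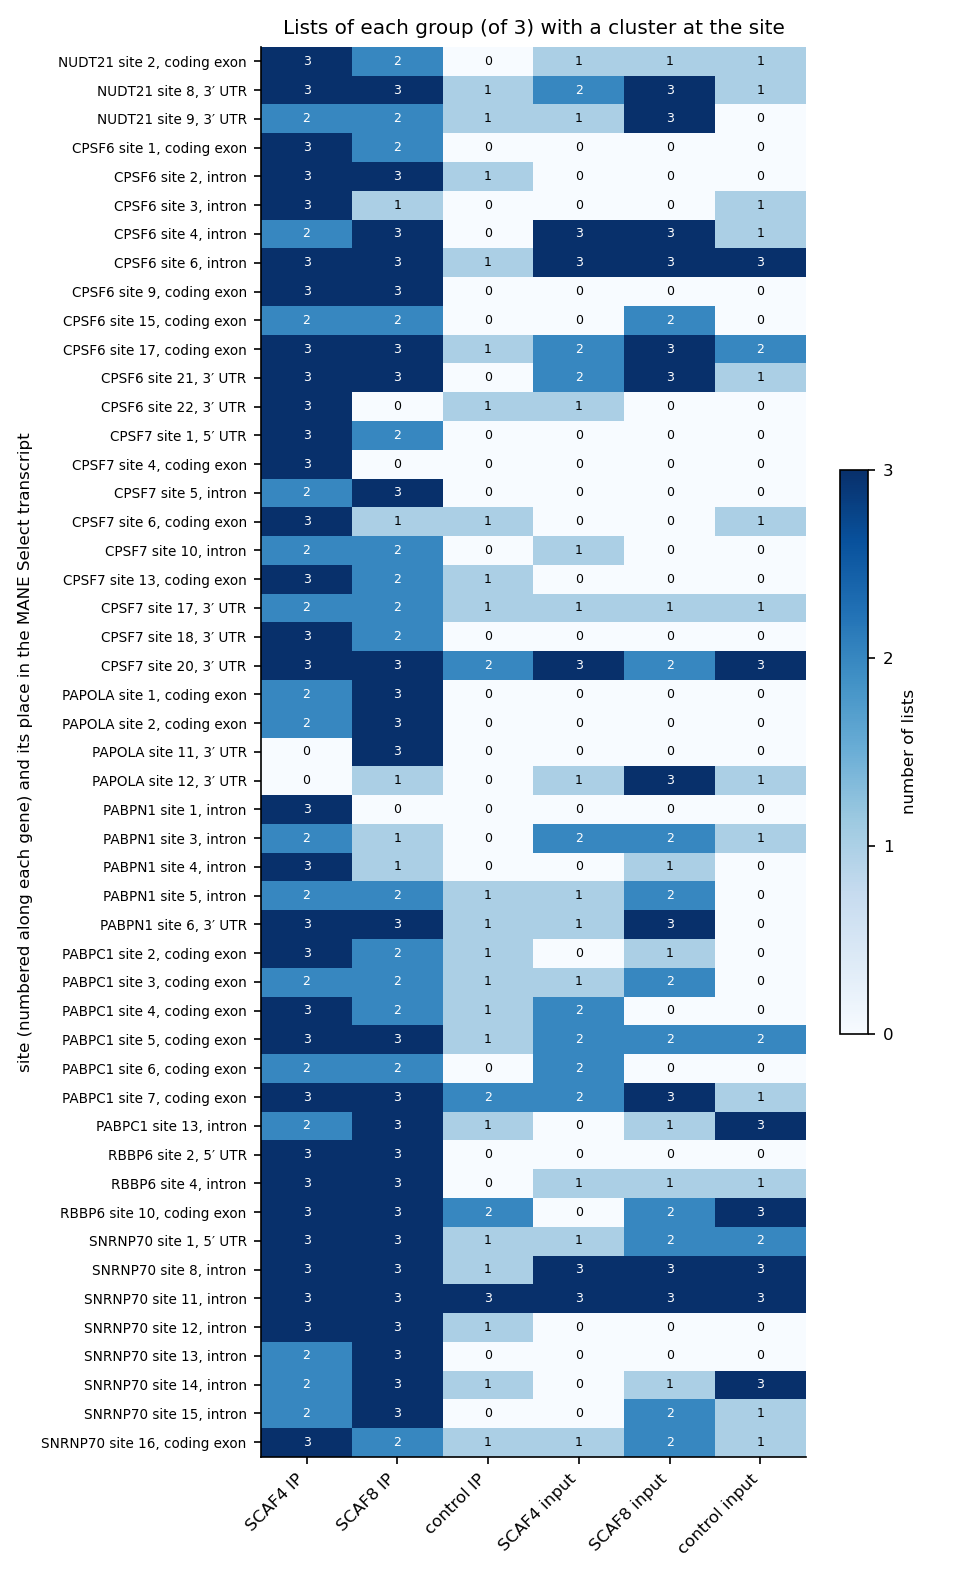
Number of lists of each group (0 to 3, written in the cells and shown by the colour) with a cluster at each site named by the rule, in the 8 genes with clusters. RBBP6 site 2 and CPSF6 site 9 have 3 lists in each SCAF IP group and 0 elsewhere, and SNRNP70 site 11 has 3 in every group.

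Of the 116 sites, 53 (45.7%) were found in SCAF IP lists only, beside 65.1% of the 82455 sites of the whole series, and 51 (44%) were shared with an input or control IP list, beside 27.6%. In 4 or more SCAF IP lists there were 43 (37.1%, beside 21.1%), and in 5 or more inputs 14 (12.1%, beside 5.02%). These shares are descriptions, and their difference was not tested. By gene, sites in SCAF IP lists only were 7 of 10 in RBBP6, 8 of 12 in PAPOLA, 12 of 20 in CPSF7 and 9 of 16 in SNRNP70, and 8 of 25 in CPSF6, 6 of 18 in PABPC1, 2 of 9 in NUDT21 and 1 of 6 in PABPN1.

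The study removed regions that were also found in inputs, and whole genes with at least 1 input cluster per 10 kb. Its methods do not say whether overlapping clusters of several inputs count once. With merged input regions counted over the gene and 2 kb on each side, and regions that met a control IP cluster removed too, PAPOLA and RBBP6 alone kept any. PAPOLA kept 5 regions for SCAF4, 3 for SCAF8 and 6 for the pooled lists, and RBBP6 kept 3 in each. The other 6 genes with clusters lost all of theirs. They had 1.91 (CPSF7) to 6.89 (PABPN1) input regions per 10 kb, against 0.574 in PAPOLA and 0.766 in RBBP6. With every input cluster counted singly, a setting added after seeing the data, PAPOLA (1.15 per 10 kb) and RBBP6 (2.30) also reached the limit and no gene kept a region, so the way of counting decides this result. Before the step that drops genes CPSF7 had 8 regions for SCAF4 and 4 for SCAF8, CPSF6 had 4 and 3, SNRNP70 had 2 and 4, NUDT21 had 2 and 0, PABPN1 had 3 and 0 and PABPC1 had 0 and 1.

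Clusters that spanned an exon-intron boundary made up a larger share of the clusters in these genes in SCAF IP lists than in their own inputs. The share was 37.5%, 34.1% and 43.8% in SCAF4 IP and 23.0%, 25% and 32.3% in SCAF8 IP. It was 16.7%, 9.09% and 15.4% in SCAF4 inputs and 20%, 17.2% and 15.4% in SCAF8 inputs, so all 6 IP lists lay above all 6 inputs. The means were 32.6% ± 7.76 and 15.6% ± 3.62 (SD, n = 6), a difference of 17.0 points (two-sided exact permutation p = 0.00216, the smallest that 924 arrangements allow, and 0.0195 after adjustment over 9 share comparisons). The other protein-coding genes differed alike, with 30.9% ± 4.00 against 15.4% ± 0.872, or 15.6 points. Permuted within replicate numbers, the difference of 17.0 points no longer passed (adjusted p = 0.0833 in the exact test, where the smallest unadjusted p is 0.00926). It was 13.0 points for clusters at or above the median score (adjusted exact p = 0.156), and 14.1 to 19.5 points without any 1 of the replicates (0.129 to 0.257). Without 1 replicate the unadjusted exact p was 0.0286 each time, the smallest that 70 arrangements allow, so all IP lists still lay above all own inputs.

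Control IP lists did not separate from SCAF IP in this share, with 35.5%, 0% and 33.3% of 31, 4 and 3 clusters. The difference of 9.66 points had an exact permutation p of 0.333 (adjusted 0.474). SCAF4 IP lists lay above all SCAF8 IP lists, by 11.7 points (38.4% ± 4.91 against 26.8% ± 4.92, SD, n = 3), where 3 against 3 lists cannot go below the exact p of 0.10 that was found (adjusted 0.300). In the other genes this difference was 6.09 points. Clusters were of similar length in IPs and inputs, with medians of 141 to 154 nt over the 6 groups.

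**Figure D5:**
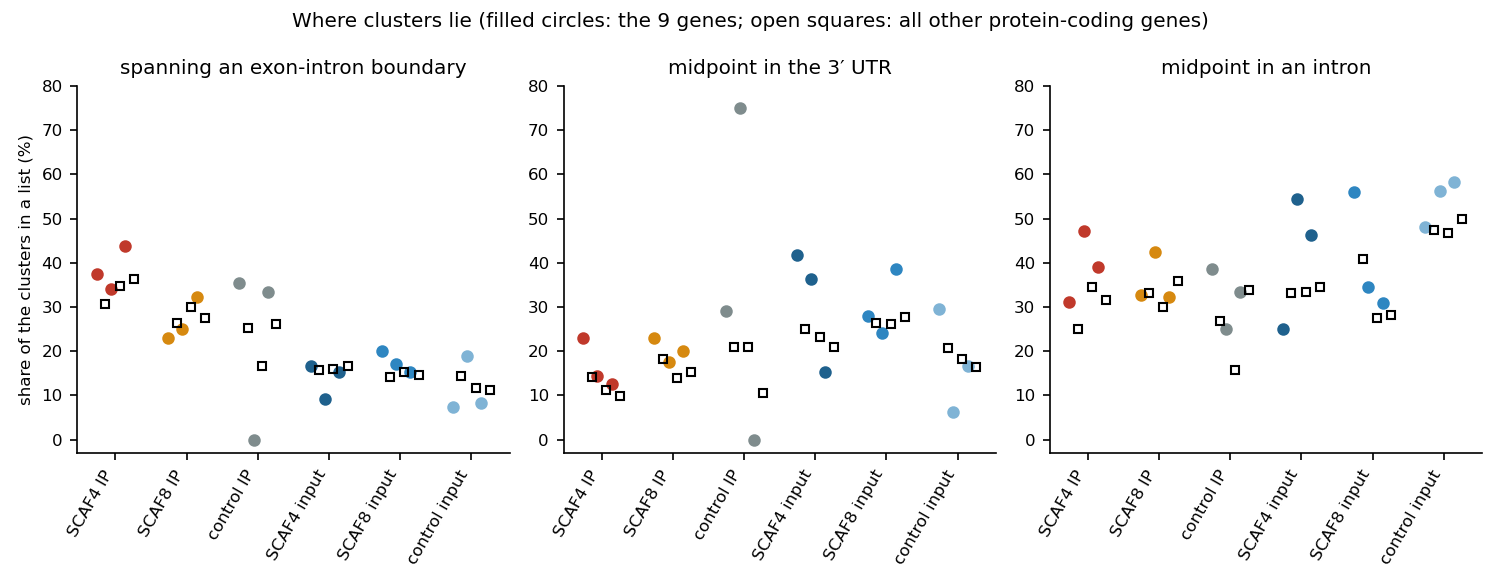
Share of clusters (y axis, %) that span an exon-intron boundary, have their midpoint in the 3′ UTR or have it in an intron, in the 3 lists of each group. Filled circles are the 9 genes and open squares all other protein-coding genes, replicates 1 to 3 from left to right. For boundary-spanning clusters the SCAF4 IP lists (34.1% to 43.8%) and SCAF8 IP lists (23.0% to 32.3%) lie above all inputs, which reach 20%.

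The 3′ UTR share was lower in SCAF IP (18.4% ± 4.39) than in own inputs (30.7% ± 9.97, SD, n = 6), a difference of −12.3 points that did not pass after adjustment (exact permutation p = 0.0238, adjusted 0.107). It passed with the isoform of largest summed exon length in place of MANE Select (−15.6 points, adjusted exact p = 0.0390), with the mean over genes (−17.4 points, 0.0390) and without SNRNP70 (−16.6 points, 0.0487). The other genes differed by −11.1 points. The intron share was 37.5% ± 6.49 in SCAF IP and 41.2% ± 12.9 in own inputs (exact permutation p = 0.550, adjusted 0.619), and with the longest isoform the difference of −3.63 points turned to 5.83.

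Near the start of the genes, 30 of 203 SCAF4 IP clusters (14.8%) and 19 of 166 SCAF8 IP clusters (11.4%) lay within 1 kb of the transcript start, beside 3 of 38 (7.89%) in control IP and 2 of 60, 3 of 80 and 2 of 55 in the inputs (3.33% to 3.75%). In the other protein-coding genes the shares were 9.49% and 8.84% in SCAF4 and SCAF8 IP, 8.28% in control IP and 5.10% to 6.92% in inputs. Clusters of 1 list are not replicates and no test was made.

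Between the tagged proteins, no gene of the 8 passed the test, beside 130 of 7676 genes (1.69%) higher with SCAF4 and 29 (0.378%) higher with SCAF8. The largest differences were those of CPSF7 (0.59, 95% interval −1.43 to 2.62) and PAPOLA (−0.55, −2.18 to 1.09) on the log2 scale, both with a limma adjusted p of 0.998, and the intervals allow differences of more than 1 in either direction. None of the 8 reached an unadjusted p below 0.05, and 709 of all genes did, while exact permutation of 3 against 3 lists can call none. At single sites, CPSF7 site 4 and PABPN1 site 1 were found in all SCAF4 IP lists and in no other list, and PAPOLA site 11 in all SCAF8 IP lists and no other. With 3 lists a group these sites were below the number needed for the test, and the difference between the proteins was not tested there.

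In the 100 nt around the middle of each site, the letters CGG or CGA were present on the transcribed strand in 61 of 116 sites (52.6%), beside 62.0% of 70747 sites in all protein-coding genes. Of the 27 sites found in 2 or more SCAF IP lists and nowhere else, 14 (51.9%) held them, beside 72.0% of 19851 such sites in all genes. CAG with C or G on each side was present in 30.2% of the sites (41.8% in all genes) and CTCC or CACC in 46.6% (46.7%). AATAAA, the common polyadenylation signal, was present in 7 sites (6.03%, beside 3.56%). A match of letters is a description and not a binding site.

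Sites near the annotated ends of complete coding transcripts made up 15 of 116 (12.9%), beside 6.22% in all protein-coding genes, counted where an end lay within the site or up to 200 nt behind it. At 11 of them (9.48%, beside 3.41%) the end lay upstream of the main one, among them CPSF7 sites 4 to 6, 16 and 17, CPSF6 site 21, PABPN1 sites 2 and 5, PABPC1 sites 13 and 14 and RBBP6 site 7. CPSF7 sites 4 and 5, which were counted at the same transcript end, and RBBP6 site 7 were found in SCAF IP lists only. The others were also in inputs or control IPs. Of the 27 sites in 2 or more SCAF IP lists and nowhere else, 11.1% were near an end, beside 22.9% of the 35 in 2 or more inputs. Over all protein-coding genes these shares were 4.71% and 13.2%, so sites of SCAF IP lists only were the less often near an end. CPSF7 site 16, PABPN1 site 2 and PABPC1 site 14 are named here after their values were seen.

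The other genes of the cleavage and polyadenylation machinery gave a background for the 9. Of 17 such genes, the CPSF and CSTF subunits, WDR33, FIP1L1, SYMPK, PCF11, PAPOLG, PABPC4, SSU72 and the phosphatases PPP1CA and PPP1CB, all held clusters. Against own inputs 4 of the 17 were called higher and none lower by limma, beside 27.8% and 1.98% of all genes. Against control IP it was again 4 and none, beside 27.0% and 2.45%. Between SCAF4 and SCAF8 IP none was called, beside 1.69% higher and 0.378% lower, where 709 of all genes had an unadjusted p below 0.05. The median differences of the 17 genes were 0.09, 0.82 and −0.02 on the log2 scale. They held 0 to 56 clusters a gene in SCAF4 IP lists, 0 to 40 in SCAF8 IP, 0 to 15 in control IP and 0 to 20 in inputs.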

How the data were processed

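The data were 18 PAR-CLIP cluster lists from 36 samples, 1 list per line, IP or input and replicate. Per the study's methods and the submitters' processing notes, the authors trimmed reads (bcl2fastq 1.8, Trim Galore, cutadapt), aligned them to GRCh38 with Bowtie2 2.2.9, removed duplicates with Picard and called clusters with PARalyzer. The deposited lists give each cluster's position, strand and a score from 0.501 to 1, whose meaning the files do not name. They precede the removal of input and control clusters. Replicate 1 had reads of 100 nt and the others of 75 nt. The lists hold no reads, so depth is unknown.

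Clusters per gene were compared as log2 clusters per list total (prior count 0.5) in genes with a cluster in at least 3 of 18 lists, with limma 3.58.1 (trend) in R 4.3.3 and Benjamini-Hochberg adjustment at 0.05. Sites in at least 4 of 12 lists were compared with Fisher's exact test, and shares of clusters with exact permutation tests, in Python 3.11.15 with numpy 2.4.6, pandas 2.3.3, scipy 1.17.1 and matplotlib 3.10.9. Features came from MANE Select transcripts. The gene test and the share test were checked on simulated data. Named were sites in at least 4 of 6 SCAF IP lists, in at least 5 of 9 inputs, or in all 3 lists of 1 tagged protein only, and each gene's most-found site. Of these sites, 1 is not reported here. IPs and inputs of the same number came from the same extract. Their deviations from the group means correlated most with those of their own number in all 9 pairs, at 0.0379 to 0.263. Lists of the same number from different lines correlated up to as high a value. This was −0.0389 to 0.262 between SCAF4 and SCAF8 IP and 0.0692 to 0.266 between SCAF4 and control inputs. The part of the shared extract in these correlations was not tested.

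Alternatives were another prior count, filters, overlap rule, covered nucleotides, the median score, isoform, equal list lengths, the replicate block and each replicate left out. The settings without scaling to list totals and without SNRNP70 were added after seeing the data. The members and lists were chosen with earlier results of these data known. Other assays of the study were not analysed here.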

Additional observations from a re-analysis of the deposited data

How the results depend on the processing

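The number of member genes called against own inputs was 0. It became 4 without scaling to list totals, where 71.8% of all genes were called higher, and 0 to 2 when 1 replicate was left out. Against control IP it was 2, and 0 for the clusters of at least median score or with exact permutation in place of limma. It was 8 without scaling, where 72.0% of all genes were called higher, and 0 to 3 without 1 replicate. Between SCAF4 and SCAF8 IP it stayed 0. The 4 member sites called became 0 at or above the median score, in lists of equal length, with the replicate block and without any 1 replicate, where fewer lists raise the smallest p that Fisher's exact test allows. The block changed no gene call of a member.

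The boundary-spanning share against own inputs differed by 17.0 points, and by 13.0 at or above the median score, 17.0 with the replicate block and 14.1 to 19.5 without 1 replicate. It no longer passed the adjusted threshold in any of these. With the block and without 1 replicate, the unadjusted exact p was the smallest that the test allows (0.00926 and 0.0286). Without 1 replicate it ran from −0.281 (without replicate 2) to 17.1 against control IP and from 10.3 to 13.0 between SCAF4 and SCAF8 IP, where other settings gave up to 17.5 (mean over genes). The 3′ UTR share against own inputs passed at −15.6 (longest isoform), −17.4 (mean over genes) and −16.6 points (without SNRNP70), and ran from −13.1 to −11.3 without 1 replicate. Without 1 replicate it ran from −32.6 to 5.08 (without replicate 2) against control IP and from −5.36 to −1.62 between the proteins, and other settings gave down to −50.3 (median score) and −12.2 (mean over genes). The intron share turned to 5.83 against own inputs (longest isoform; −5.63 to −1.21 without 1 replicate), to −0.600 (mean over genes) and −2.17 (without replicate 2; 11.1 at most without 1 replicate) against control IP, where the median score gave 23.8, and to −0.205 between the proteins (median score; 1.61 to 5.75 without 1 replicate). Where no construction is named, the cause was not tested.

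Over all genes, those higher than in own inputs numbered 2131, and 319 to 2706 without 1 replicate, 824 at the median score, 970 in at least 6 lists, 450 by permutation and 5511 unscaled. Those lower numbered 152, and 8 to 288, 25, 270 by permutation and 1 unscaled. Against control IP, 2072 higher became 0 to 3553, 71, 1320, 0 and 5528, and 188 lower became 0 to 290, 18 at the median score, and 0 by permutation and unscaled. Between the proteins, 130 became 0 to 67, 75, 0, 0 and 253, and 29 became 0 to 34, 18, 0, 0 and 44. Of the values recomputed for the comparisons, 89 kept their direction, where they have one, and their side of the threshold, or a similar count. A further 13 counts moved, 6 values reversed, 5 lost and 3 gained the threshold. List length limits what an absent cluster can show, most of all in control IP.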
